A study of Mus musculus with 6 samples.

Results

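The genes described here are the melanocyte pigmentation genes: the 10 members Tyr, Tyrp1, Dct, Pmel, Mlana, Mitf, Slc45a2, Oca2, Slc24a5 and Gpnmb. They were chosen by gene symbol from a table of 15667 genes measured in bulk RNA from mouse ear skin, and 9 of the 10 have a row in that table. The expression of Oca2 was not analysed here. The study asked how the loss of adiponectin, a hormone made by fat cells, changes the skin at a tick bite. Female B6;129-Adipoq tm1Chan/J littermates, 7 to 8 weeks old, were either wild type (Adipo+/+, called WT, 3 libraries) or homozygous for a germline null allele of the adiponectin gene (Adipo-/-, called KO, 3 libraries). All 6 mice carried feeding Ixodes scapularis nymphs, 10 per mouse, and skin was taken at the bite site after 48 h as a 3.5 mm punch of the ear. Unbitten skin was not analysed here, so every value belongs to bitten skin, and neither the coat colour nor the pigment alleles of the mice were stated in the sources.

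Melanin is made inside melanosomes, organelles related to lysosomes that melanocytes build and pass on to keratinocytes. Tyrosinase starts the pathway by oxidizing tyrosine, and its relatives TYRP1 and DCT act on later intermediates, while PMEL forms the fibrils on which melanin is laid down. The transcription factor MITF switches on many of these genes. In the hairy skin of mice, most pigment is made in hair follicles, and it is made while the hair grows. The samples here are of ear skin, and where its pigment is made was not measured.

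MITF binds a short DNA element, the E-box, and the promoters of the 3 melanin-synthesis genes show it. The windows come from RefSeq (mouse build GRCm38.p6) and reach from 250 bases before to 50 bases after each gene's start. Of the 10 members, 7 have such a window, and Pmel, Mlana and Slc45a2 do not. The stretches of 60 bases printed next show how alike the 3 enzymes are around the element, with Slc24a5 as a member that holds it on the other strand. Capitals mark the E-box core CATGTG, or CACATG where it lies on the other strand, and each stretch is written in the direction of its gene.

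Tyr (chr7:87493513-87493572, minus strand): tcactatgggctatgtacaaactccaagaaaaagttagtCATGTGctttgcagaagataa
Tyrp1 (chr4:80834140-80834199, plus strand): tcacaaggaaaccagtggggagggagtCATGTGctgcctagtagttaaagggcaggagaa
Dct (chr14:118052364-118052423, minus strand): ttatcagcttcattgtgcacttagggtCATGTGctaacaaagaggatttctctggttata
Slc24a5 (chr2:125068067-125068126, plus strand): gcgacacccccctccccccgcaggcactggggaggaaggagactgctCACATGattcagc

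The longest run of bases shared by the windows of Tyr, Tyrp1 and Dct had 10 bases, GTCATGTGCT, and contains the core. The core within it begins at base -21 from the start of Tyr, at -46 in Tyrp1 and at -150 in Dct, whose window holds another match of the core besides. Across all 32851 RefSeq windows of this length, 61 (0.186%) held this run on either strand, while the 6-base core CATGTG was in 14.2% of them and the related core CACGTG in 7.15%. The core was in 5 members: Tyr, Tyrp1, Dct, Oca2 and Slc24a5. It was in none of the 3 windows of Mitf and not in that of Gpnmb. These matches are a description of letters in a window, and binding was not measured.

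Values are in counts per 1000000 reads of a library (CPM). The libraries held 3403773 to 6591320 reads as implied by the smallest step of their CPM values, so that 3 reads correspond to 0.455 to 0.881 CPM, and a value of 0 allows a level of up to that size. Adipoq, the targeted gene, was at 30.5, 63.7 and 49.6 CPM in the WT mice and at 0, 0.561 and 0 CPM in the KO mice (log2 fold change -6.17, SE 0.41, adjusted p = 0.00322, limma with Benjamini-Hochberg adjustment), which is the pattern the genotype labels give. WT replicate 3 stood apart from the other WT libraries: 24 genes of the growing hair follicle (keratins, trichohyalin and regulators of the hair matrix) summed to 24760 CPM there, against 30.5 and 36.4 CPM in WT replicates 1 and 2 and 1970, 9809 and 1029 CPM in KO replicates 1, 2 and 3. The genotype comparison of the members is therefore given without it too.

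Apart from Mitf and Gpnmb, the pigmentation genes were at low levels in 5 of the 6 libraries, none above 3.23 CPM, and higher in WT replicate 3. All 9 members with a row had their highest value in that library, whereas 19.95% of the 14306 genes tested did. The summed level of Tyr, Tyrp1, Dct and Pmel was 86.6 CPM in WT replicate 3, and 4.60, 3.05, 6.52, 4.48 and 5.58 CPM in WT replicates 1 and 2 and KO replicates 1, 2 and 3. In bulk skin, fewer melanocytes and less RNA per melanocyte cannot be told apart.

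Tyr encodes tyrosinase, the enzyme that begins melanin synthesis (chr7:87424771-87493512). It was at 0, 0 and 6.92 CPM in the WT mice and at 0.910, 0.280 and 0.588 CPM in the KO mice. All libraries except WT replicate 3 were under 1 CPM, and the WT values lay on both sides of the KO values. The 5 low libraries together held 9 reads of Tyr, against 42 in WT replicate 3. Its level there was 7.61-fold that of the next library, KO replicate 1 (95% interval from the reads 3.22 to 21.9, exact binomial, counting error only).

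Tyrp1 encodes a relative of tyrosinase that acts on a later melanin intermediate (chr4:80834213-80851736). Its values were 0.968, 0.204 and 24.6 CPM in the WT mice and 1.06, 1.40 and 0.588 CPM in the KO mice. Here 3 libraries were under 1 CPM (WT replicates 1 and 2 and KO replicate 3), and WT replicate 3 was 17.5-fold above KO replicate 2, the next in order (interval 7.35 to 54.8). The groups overlapped.

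Dct encodes dopachrome tautomerase, which acts between the other two enzymes (chr14:118012790-118052246). It was at 2.42, 1.22 and 33.1 CPM in the WT mice and at 3.03, 1.12 and 3.23 CPM in the KO mice. The low libraries held 4 to 20 reads of Dct each, more than of Tyr in all 5 and more than of Tyrp1 in all but KO replicate 2. WT replicate 3 exceeded the next library, KO replicate 3, by 10.3-fold (interval 5.61 to 20.9), and the remaining WT libraries lay within the KO range.

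Pmel encodes the protein of the melanosome fibrils (chr10:128706258-128720238). Its values were 1.21, 1.63 and 21.9 CPM in the WT mice and 1.52, 1.68 and 1.18 CPM in the KO mice. The 5 low libraries spanned a narrow range, from 1.18 to 1.68 CPM, and WT replicate 3 was 13.0-fold above the highest of them (interval 5.84 to 36.2). The locus overlaps that of Dgka on the opposite strand, and the sources used here do not state whether reads were counted by strand.

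**Figure D1:**
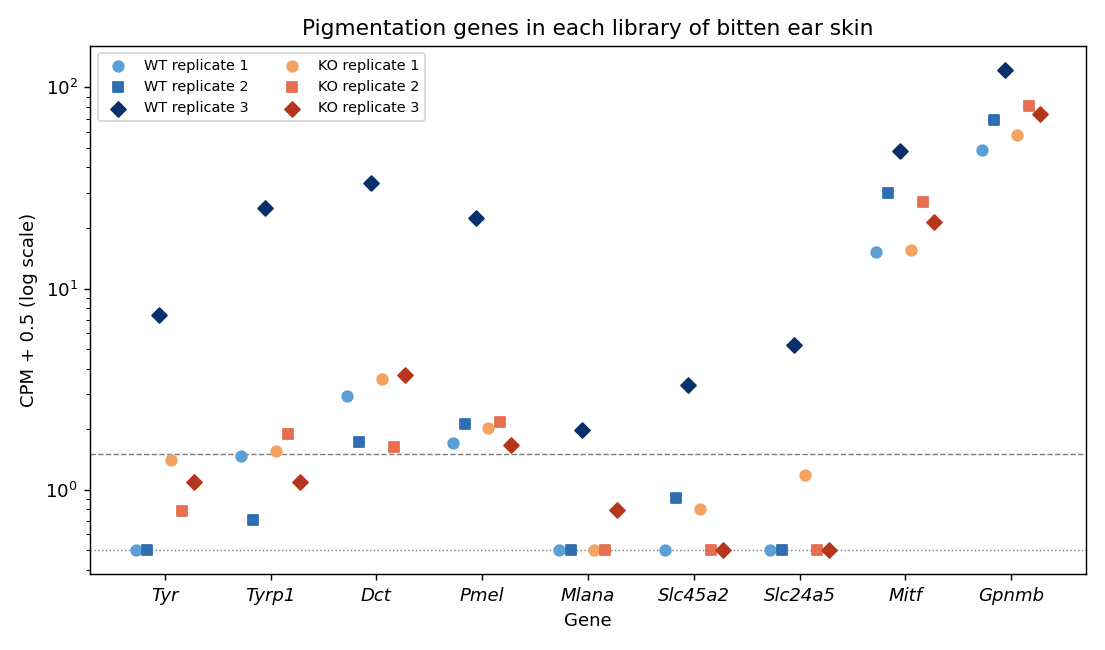
Level of the 9 pigmentation genes with a row in each of the 6 libraries, as CPM + 0.5 on a log axis. Each point is 1 library (blue WT, orange KO), the dotted line marks 0 CPM and the dashed line 1 CPM. WT replicate 3 is the highest point for all 9 genes, from 1.48 CPM for Mlana to 122 CPM for Gpnmb.

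The remaining members specific to melanosomes had means under 1 CPM and were not tested for that reason. Mlana, which encodes a melanosomal membrane protein and lies at chr19:29697941-29708306, had a mean of 0.296 CPM. It was at 0, 0 and 1.48 CPM in the WT mice and at 0, 0 and 0.294 CPM in the KO mice, or 9 reads in WT replicate 3 and 1 read elsewhere. With so few reads its ratio of 5.05 between WT replicate 3 and KO replicate 3 had an interval from 0.700 to 221, which includes no difference.

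Slc45a2 and Slc24a5 encode transporters of the melanosome and of related compartments, and variants of both are known to alter pigmentation. Slc45a2 (chr15:11000721-11029233, mean 0.586 CPM) was at 0, 0.407 and 2.80 CPM in the WT mice and at 0.304, 0 and 0 CPM in the KO mice. Slc24a5 (chr2:125068127-125088677, mean 0.903 CPM) was at 0, 0 and 4.73 CPM in the WT mice and at 0.685, 0 and 0 CPM in the KO mice, and its locus overlaps Myef2 on the opposite strand. Both genes had reads in 1 of the libraries of the other genotype and in WT replicate 3, and Slc45a2 also in WT replicate 2. WT replicate 3 held 17 reads of Slc45a2 and 29 of Slc24a5, against 4 and 5 in the other 5 libraries together.

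Mitf and Gpnmb behaved differently from the melanosome genes, being well detected in every library. Mitf encodes the regulator of the pigment programme, and is also expressed in mast cells and macrophages (chr6:97807058-98021358). It was at 14.8, 29.5 and 48 CPM in the WT mice and at 15.0, 26.3 and 20.9 CPM in the KO mice. WT replicate 3 was 1.63-fold above WT replicate 2 (interval 1.33 to 2.0), a small excess beside those of the enzymes, and WT replicate 1 and KO replicate 1 were the lowest.

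Gpnmb encodes a glycoprotein related to PMEL, found in melanosomes and in macrophages (chr6:49036518-49058182). Its values were 48.2, 68.1 and 122 CPM in the WT mice and 57.5, 80.1 and 73.4 CPM in the KO mice. WT replicate 3 was 1.52-fold above KO replicate 2 (interval 1.32 to 1.75). Of 16 macrophage genes, 1 had its highest value in WT replicate 3, where 19.95% of all genes tested did. It was Mertk (named after its values were seen), at 16.8 CPM there and at most 10.9 CPM elsewhere. The summed level of the 16 genes in the other libraries was 95.4% to 194% of that in WT replicate 3. A macrophage part in the values of Gpnmb was not tested. Mrc1, the macrophage mannose receptor and among the most abundant of these genes, was at 222, 326 and 122 CPM in the WT mice and at 145, 304 and 153 CPM in the KO mice.

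Levels of different genes were compared per kilobase of the longest coding transcript. In WT replicate 3 the order was Gpnmb at 32.9 CPM per kb, Dct at 15.0, Pmel at 10.3, Mitf at 9.83, Tyrp1 at 9.03, Slc24a5 at 2.42, Mlana at 1.64, Tyr at 1.15 and Slc45a2 at 0.940. Gpnmb and Dct stood apart from their neighbours, with counting intervals of 30.5 to 35.3 and 13.0 to 17.3 CPM per kb. The intervals of Pmel (8.62 to 12.2), Mitf (8.73 to 11) and Tyrp1 (7.64 to 10.6) overlapped, as did those of Slc24a5 (1.64 to 3.51) and Mlana (0.749 to 3.11), so these neighbours could not be ordered. The interval of Tyr (0.826 to 1.55) overlapped those of Mlana and Slc45a2 (0.547 to 1.5), so the last places could not be ordered either. Tyrosinase mRNA was thus below that of DCT and TYRP1 in WT replicate 3. These enzyme genes were also detected in the KO libraries, but with only 1 to 6 reads of Tyr each. In the other 5 libraries the highest level of an enzyme gene was 1.47 CPM per kb, for Dct in KO replicate 3, while Mitf ranged from 3.03 to 6.04 and Gpnmb from 13.0 to 21.7 CPM per kb.

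No member differed between WT and KO beyond the spread of the libraries. Values were compared as log2(CPM + 0.5) with limma over the 14306 genes that averaged 1 CPM or more, which included 6 members. Of these members, Tyr and Tyrp1 reached that mean only through WT replicate 3. None of the 6 passed an adjusted p of 0.05 (adjusted p = 0.998 for each, limma), a level that 0.014% of all genes tested reached. At an unadjusted p of 0.05, 0 of 6 were higher in KO and 0 of 6 lower, where 1.06% and 1.82% of all genes were. The KO values of no member lay wholly above or wholly below the WT values, which was so for 2.95% and 4.89% of genes.

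All 6 fold changes were negative, from -0.08 for Gpnmb to -1.16 for Pmel, but their intervals were wide. Differences are on the log2(CPM + 0.5) scale, where the added 0.5 weighs on genes as low as these: for Tyr the sign depended on it, at 0.64 with 0.1 added in place of 0.5. The difference was -1.0 for Tyrp1 (SE 1.18, 95% interval -3.74 to 1.74), -0.99 for Dct (SE 1.02, -3.35 to 1.36) and -1.16 for Pmel (SE 0.90, -3.24 to 0.93). Tyr had -0.21 (SE 1.03, -2.60 to 2.18). The well-detected genes had narrower intervals, with -0.44 for Mitf (SE 0.40, -1.37 to 0.49) and -0.08 for Gpnmb (SE 0.31, -0.80 to 0.64). These intervals leave room for several-fold differences of the enzyme genes in either direction. The group means show where the spread came from: Tyrp1 was at 8.58 ± 13.8 CPM in the WT libraries against 1.02 ± 0.409 CPM in the KO libraries (SD, n = 3 per genotype), and Dct at 12.3 ± 18.1 and 2.46 ± 1.17 CPM.

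The direction of the fold changes rested on WT replicate 3. The median over the 6 members was -0.72 with all libraries and 0.29 without WT replicate 3, while the median of all genes was -0.03 and -0.04. Without that library Tyr had a fold change of 1.09 (limma, adjusted p = 0.997), Tyrp1 0.54, Dct 0.31, Pmel 0.03, Mitf -0.05 and Gpnmb 0.28. None of the 6 passed an unadjusted p of 0.05 there, where 2.24% of all genes were higher and 2.73% lower in KO, and the 95% interval of Pmel then ran from -0.98 to 1.04. The genes tested were still those averaging 1 CPM or more over all 6 libraries. Tyr and Tyrp1 averaged under 1 CPM over the remaining libraries, so they stayed in through the library left out. Both remaining WT libraries held 0 reads of Tyr, so its fold change depends on the 0.5 added.

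**Figure D2:**
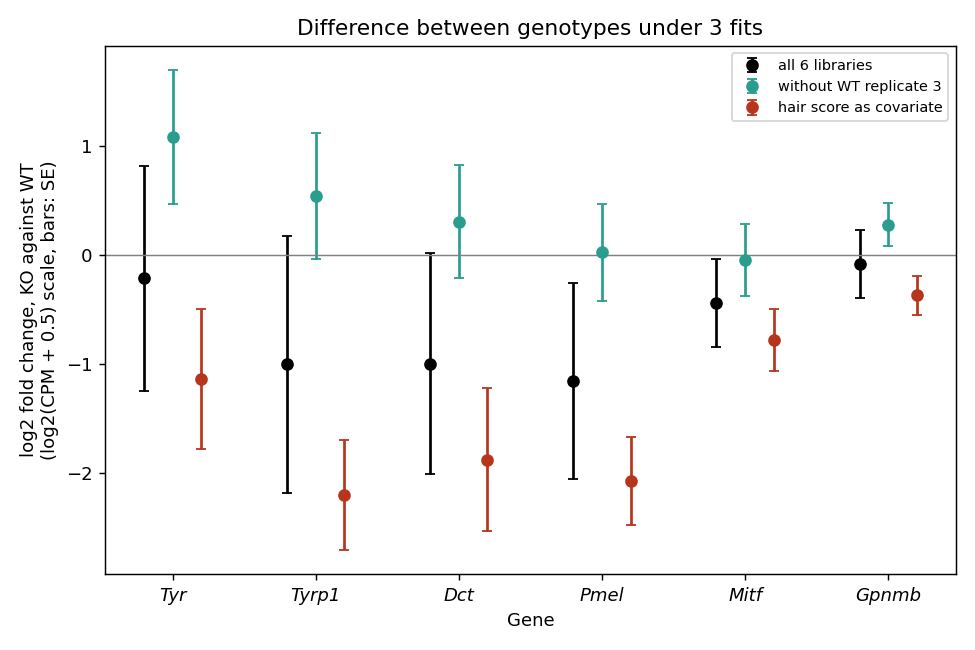
Log2 fold change of KO against WT on the log2(CPM + 0.5) scale for the 6 members tested, with bars of 1 SE, in the fit of all 6 libraries (black), without WT replicate 3 (green) and with the hair score of each library as a covariate (red). The black points are all below 0, the green points are above 0 except that of Mitf at -0.05, and the red points lie between -0.37 and -2.20.

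WT replicate 3 was also the library with the most hair follicle RNA. Across the other libraries, the sum of 4 pigmentation genes did not follow the summed hair genes in proportion. Tchh held 12906 and Krt71 4035 of the 24760 CPM of hair genes in WT replicate 3, so that sum mostly reflects a few genes. Relative to WT replicate 3, the summed hair genes were at 39.6% in KO replicate 2, 7.96% in KO replicate 1, 4.16% in KO replicate 3, and 0.123% and 0.147% in WT replicates 1 and 2. The sum of Tyr, Tyrp1, Dct and Pmel was at 5.18%, 7.54%, 6.45%, 5.31% and 3.53% in the same libraries. KO replicate 2 thus had the highest hair signal of the 5 and a pigment signal inside their range. WT replicates 1 and 2 had almost no hair signal and a pigment signal close to that of the KO libraries. The pigment sums of these 5 libraries rest on few reads. In KO replicate 2 they were 1 read of Tyr, 5 of Tyrp1, 4 of Dct and 6 of Pmel. No counting interval was worked out for the sums.

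WT replicate 3 and KO replicate 2, the libraries with the most hair RNA, were also compared gene by gene. Krt71, a keratin of the inner root sheath, was at 4035 CPM in WT replicate 3 and 1318 CPM in KO replicate 2, a ratio of 3.06 (interval 2.97 to 3.16), and Tchh, which encodes trichohyalin, had a ratio of 2.24 (interval 2.21 to 2.28). The ratios of the hair genes ran from 1.47 to 4.04 except that of Shh, the Hedgehog ligand of the hair matrix (named after its values were seen), which was 9.61 (interval 3.10 to 48.2). The ratio was 17.5 for Tyrp1, 29.6 for Dct (interval 11.4 to 110) and 13.0 for Pmel. For Tyr it was 24.7 with an interval from 4.20 to 999, since KO replicate 2 held 1 read. Mitf had a ratio of 1.82 (interval 1.44 to 2.32), which takes in that of Tchh, and Gpnmb of 1.52. Slc24a5 was at least 5.69-fold, Slc45a2 at least 3.33-fold and Mlana at least 1.77-fold higher in WT replicate 3, taking 3 reads as the limit of a count of 0. These are comparisons of 2 libraries, each from 1 mouse of a different genotype, and not of the genotypes.

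Taking the hair signal into the model changed the count of members called at an unadjusted p, though no member passed after adjustment. With the mean log2(CPM + 0.5) of the 24 hair genes as a covariate, 4 of 6 members were lower in KO at an unadjusted p of 0.05, where 3.88% of all genes were. They were Pmel (-2.07, SE 0.41, adjusted p = 0.314), Tyrp1 (-2.20, SE 0.51, adjusted p = 0.416), Dct (-1.88, SE 0.65, adjusted p = 0.712) and Mitf (-0.77, SE 0.28, adjusted p = 0.755), all from limma. Among the WT libraries the hair score was high only in WT replicate 3 (7.94), where these genes were also highest. The calls thus restate the values of that library. Tyr and Tyrp1 averaged under 1 CPM over the other libraries and entered the fit through WT replicate 3. Without WT replicate 3 the same model, added after seeing the data, called 0 of 6. In the remaining libraries the hair score was -0.25 and -0.016 in WT and 4.31, 6.43 and 3.59 in KO. Score and genotype were thus nearly confounded, and this fit cannot decide the genotype difference. The SE rose from 0.64 to 1.45 for Tyr and from 0.51 to 1.455 for Tyrp1. The fold changes were then 2.17 for Tyr and 2.59 for Dct and negative for the other 4, with -1.02 for Mitf, -0.58 for Pmel, -0.54 for Tyrp1, -0.20 for Gpnmb and a median of -0.37.

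Other genes of the melanocyte were examined with a list of 20 genes of melanocyte identity and signalling. It had 16 genes in the table and 13 tested, with 0 higher and 0 lower in KO at an unadjusted p of 0.05 and a median fold change of -0.12. Its 4 most abundant genes, which other skin cells share, had overlapping WT and KO values: Tfap2a, a transcription factor of keratinocytes and neural crest, ranged from 115 to 144 CPM, Tfap2b from 56.4 to 90.5, Zeb2 from 79.6 to 138 and the endothelin receptor gene Ednrb from 32.9 to 124 CPM. WT replicate 3 had the highest value for 10 of the 16, and for 19.95% of all genes tested.

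Within that list, Trpm1 and Mc1r, which are largely restricted to melanocytes, stood highest in WT replicate 3 like the enzymes. They and the other genes of this list named next were chosen after their values were seen. Trpm1, a cation channel gene and known MITF target, was at 0.484, 0.610 and 14.2 CPM in the WT mice and at 1.06, 0.280 and 1.18 CPM in the KO mice, so that WT replicate 3 was 12.1-fold above the next library (interval 4.55 to 45.3). Mc1r, which encodes the receptor for melanocyte-stimulating hormone, had 16 reads (2.64 CPM) in WT replicate 3 and 0 CPM in all other libraries.

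Of the next 4 genes, Sox10 showed no excess and Kit a smaller one than the enzymes, while Pax3 had too few reads to tell. Sox10, a transcription factor of melanocytes and Schwann cells, was at 1.94, 1.42 and 3.30 CPM in the WT mice and at 2.43, 4.20 and 2.35 CPM in the KO mice, with its highest value in KO replicate 2. Kit, the receptor for stem cell factor on melanocytes and mast cells, was at 18.4, 20.7 and 35.3 CPM in the WT mice and 16.7, 23.3 and 23.2 CPM in the KO mice. Pax3, an upstream regulator of Mitf, was under 1 CPM everywhere, at 0, 0 and 0.989 CPM in the WT mice and 0.455, 0 and 0.294 CPM in the KO mice. Its ratio of WT replicate 3 (6 reads) to KO replicate 1 (3 reads) was 2.17, with an interval from 0.464 to 13.4. Lef1, a Wnt pathway transcription factor of both hair matrix and melanocytes, was at 1.45, 2.24 and 38.9 CPM in the WT mice and 3.49, 6.17 and 4.99 CPM in the KO mice. Without WT replicate 3, Lef1 was the only gene of the 13 tested to pass an unadjusted p of 0.05 (log2 fold change 1.19). Of all genes tested, 2.24% were higher in KO at that level in that fit.

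The machinery that builds and moves melanosomes, which many cells use for related organelles, varied little in its summed level across the libraries. Of 30 genes on that list, 29 were in the table and 28 tested, with 0 higher and 0 lower in KO at an unadjusted p of 0.05 and a median fold change of 0.02. Their summed level in the other libraries was 90.0% to 96.5% of that in WT replicate 3. Myo5a, the motor that carries melanosomes, was at 215, 206 and 226 CPM in the WT mice and at 197, 218 and 177 CPM in the KO mice. Ap3d1, a subunit of the adaptor that sorts cargo to melanosomes, ranged from 85.2 to 96.8 CPM, Lyst from 123 to 167 and Mreg from 128 to 164 CPM. None of the 28 had a value in WT replicate 3 more than 2-fold above the next library. For 3 of the 28, Dtnbp1, Bloc1s3 and Rab27a (named after their values were seen), all KO values lay above all WT values, with fold changes of 0.22, 0.33 and 0.16 that did not pass the test. Of all genes tested, 2.95% had KO values wholly above the WT values.

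In that list, 9 of 29 genes had their highest value in WT replicate 3, where 19.95% of all genes tested did. The next genes of the list, chosen after their values were seen, include 3 of the 9 and 2 that did not follow. Sytl2, which encodes a Rab27 effector, was at 7.02, 5.90 and 42.5 CPM in the WT mice and 8.04, 21.6 and 8.52 CPM in the KO mice, so that KO replicate 2 was second. Mlph, which links RAB27A to the motor MYO5A, was at 0.968, 1.63 and 3.96 CPM in the WT mice and 1.37, 1.40 and 2.06 CPM in the KO mice. Slc24a4, a relative of Slc24a5, was not tested, at 0.484, 0 and 2.64 CPM in the WT mice and 0.152, 0 and 0.294 CPM in the KO mice. Rab38 and Rab32, which encode GTPases that bring enzymes to melanosomes, were highest in KO replicate 1 (50.2 CPM) and KO replicate 2 (24.4 CPM), against 35.9 and 17.0 CPM in WT replicate 3.

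The other members of the MITF family of transcription factors stood lower in WT replicate 3 than in at least 1 other library. Tfe3 was at 55.4, 56.3 and 51.3 CPM in the WT mice and 56.6, 65.3 and 54.6 CPM in the KO mice, and Tfeb at 12.8, 16.5 and 16.8 CPM in the WT mice and 14.1, 18.5 and 22.6 CPM in the KO mice. Both are regulators of lysosomes. Tfec, found in macrophages, was at 1.69, 1.42 and 1.15 CPM in the WT mice and 1.06, 1.12 and 0.588 CPM in the KO mice. Its KO values all lay below its WT values, as was so for 4.89% of all genes tested, but it did not pass (-0.45, SE 0.40, limma, adjusted p = 0.998). It rested on 2 to 7 reads per library, with 7 in both WT replicate 3 and KO replicate 1.

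Markers of other cells were set beside these values. All 24 hair genes were highest in WT replicate 3, 23 of them by over 2-fold, with 0 of 24 past an unadjusted p of 0.05 and a median fold change of 2.30. Without WT replicate 3, 22 of 24 were higher in KO at that level, where 2.24% of all genes were, with a median of 5.14. Of 12 Schwann cell genes, which share Sox10 with melanocytes, 2 were highest in WT replicate 3, as were 19.95% of all genes tested. Of the 10 Schwann cell genes tested, 0 passed. The macrophage list had 0 higher and 1 lower of 16 at an unadjusted p of 0.05, Spp1 (-1.11, limma, adjusted p = 0.998). Of all genes tested, 1.82% were lower at that level. Of 12 adipocyte genes, 0 were higher and 5 lower in KO at an unadjusted p of 0.05, where 1.82% of all genes were lower. They were Adipoq and, with an adjusted p of 0.998 each (limma), Fabp4, Lpl, Pparg and Retn. The part of hair follicle content in the values of the pigmentation genes was not tested beyond the fits given here.

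**Figure D3:**
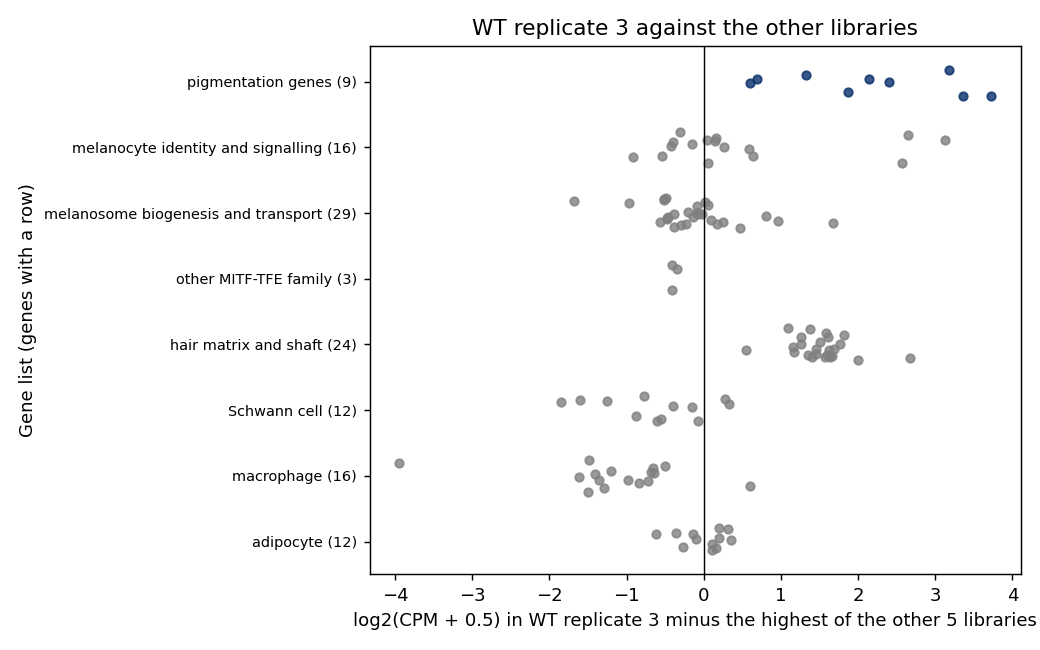
For each gene with a row, log2(CPM + 0.5) in WT replicate 3 minus the highest of the other 5 libraries, by gene list, each point being 1 gene. The 9 pigmentation genes lie to the right of 0, from 0.60 for Gpnmb to 3.72 for Tyrp1, and 24 of 24 hair genes do, whereas 1 of 16 macrophage genes does. Of all genes tested, 19.95% had their highest value in WT replicate 3.

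The excess of the enzyme genes and Pmel in WT replicate 3 was among the largest of the genes tested. Tyr, Tyrp1 and Trpm1 averaged under 1 CPM over the other libraries, so they entered this ranking through WT replicate 3 itself. Mc1r was not tested and is not ranked. Ranked by how far log2(CPM + 0.5) in that library exceeded the next, Tyrp1 was at rank 6 of 14306 (3.72), Pmel at 10 (3.36), Dct at 12 (3.17), Trpm1 at 13 (3.13) and Tyr at 27 (2.40). Mitf and Gpnmb were at ranks 357 and 422. Over all genes tested, 230 (1.61%) exceeded the next library by more than 1, 52 (0.363%) by more than 2 and 13 (0.0909%) by more than 3 on that scale.

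The genes with patterns most like the mean of Tyr, Tyrp1, Dct and Pmel were named by their Pearson correlation over the 6 libraries, a description that rests on WT replicate 3. They included Lpcat1 (r = 0.998), Epb41 (0.991), Krtap19-3 (0.989), Krtap19-2 (0.989), Gm38431 (0.987), Gli1 (0.984), Ube2r2 (0.982), Zfp37 (0.982) and Msi1 (0.980). Krtap19-3, which encodes a keratin-associated protein of the hair shaft, was at 41.9 CPM in WT replicate 3 and at most 0.881 CPM elsewhere. It belongs to a family of similar sequences, among which reads may be divided. Gli1, the transcription factor at the end of the Hedgehog pathway, was at 3.15, 1.83 and 13.5 CPM in the WT mice and 2.88, 2.80 and 2.64 CPM in the KO mice. Epb41, a membrane skeleton gene, was at 209 CPM in WT replicate 3 and 98.3 to 117 CPM elsewhere, so a high r did not need a large fold.

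Among genes chosen after their values were seen, Trpm1 was at rank 12 of this likeness (r = 0.971) and Shh at rank 11 (0.971). Shh was at 0.242, 0 and 8.08 CPM in the WT mice and at 0.455, 0.841 and 0.294 CPM in the KO mice. Krt71 was at rank 1484 (0.631) and Sox10 at rank 2614 (0.463).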

How the data were processed

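Total RNA of 6 ear punches, 3 WT and 3 KO, was sequenced, 1 library per mouse. The authors aligned reads with STAR 2.7.3a to mm10, quantified genes in Partek Flow by expectation maximization and deposited CPM values, scaled to the library total with an offset of 0.0001 added, and a value equal to the offset is written as 0 here. Low values were whole multiples of a step within 0.1 in 91.6% to 92.8% of cases, so implied reads served for counting intervals (exact binomial) and not as counts in the main test. A limit of 3 reads stands for a count of 0. Intervals cover counting error only.

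Genes averaging 1 CPM or more (14306; 1361 were left out) were compared as log2(CPM + 0.5) with limma 3.58.1 in R 4.3.3, with a mean-variance trend, two-sided p-values and Benjamini-Hochberg adjustment over all genes tested. The fit was tested on simulated data. Exact permutation of 3 against 3 cannot go below p = 0.1 and was not used. Alternatives were pseudocounts of 0.1 and 2, no filter and a filter at 5 CPM, median-of-ratios and quantile scaling, untrended and robust variance, a replicate block, the hair score as covariate, voom on implied reads, and leaving out each library. Lengths came from GENCODE M21, and promoters from RefSeq.

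The members and gene lists were chosen with earlier results of these data known. Named genes were Adipoq, the members, of each list the 4 most abundant genes and those at an unadjusted p under 0.05, and the 10 genes most like the mean of the tested members other than Mitf and Gpnmb, of which the text gives a selection (1 of these 10 is not reported here). Genes outside that rule are marked as chosen after their values were seen.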

Additional observations from a re-analysis of the deposited data

How the results depend on the processing

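No member passed an adjusted p of 0.05 in any fit, and the lowest adjusted p of a member over all alternatives (limma) was 0.314. Leaving out 1 library in turn moved the fold changes between -0.86 and 1.09 for Tyr, -2.04 and 0.54 for Tyrp1, -1.84 and 0.31 for Dct, -1.83 and 0.029 for Pmel, -0.88 and -0.05 for Mitf, -0.38 and 0.28 for Gpnmb, and between -1.27 and 0.29 for their median. The positive ends are the fits without WT replicate 3. Gpnmb was also at 0.06 without KO replicate 1 and Tyr at 0.01 without KO replicate 2. The count of members lower in KO at an unadjusted p of 0.05 ranged from 0 to 1 when 1 library was left out. The 1 was Mitf without WT replicate 1 (-0.88, limma, adjusted p = 0.956). The share of all genes lower in that fit was not counted, so it has no background beside it. With the hair score as covariate the count was 4 of 6, where 3.88% of all genes were lower. Tyr turned positive with a pseudocount of 0.1 (0.64) and with voom (0.42). In the model with the hair score and without WT replicate 3, added after seeing the data, Tyr was at 2.17 and Dct at 2.59, and the other 4 were negative (median of the 6 -0.37). Hair score and genotype were nearly confounded in that model, so it cannot decide the difference. Adipoq ranged from -6.54 to -5.94 when 1 library was left out. It missed the adjusted threshold without WT replicate 2 (adjusted p = 0.0681), with voom (-7.88, adjusted p = 0.502) and in the added model (-8.26, adjusted p = 0.118). The causes were not tested.

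Whether replicate numbers pair the libraries could not be decided from the values. Deviations of same-numbered WT and KO libraries from their group means correlated at 0.376, -0.306 and -0.222. The highest correlation was 0.449, for WT replicate 3 with KO replicate 2, the libraries with the most hair RNA. With the replicate block, 0 members were called and the median fold change was -0.72. The filter at 5 CPM left Dct, Mitf and Gpnmb.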

Other observations

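The 3 members under 1 CPM can be given a fold change only without the filter on low values. On the log2(CPM + 0.5) scale KO against WT was then -0.44 for Mlana, -0.71 for Slc24a5 and -0.97 for Slc45a2, with an adjusted p of 0.999 for each (limma). These rest on 10, 34 and 21 reads in all 6 libraries together.

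Of the reads in all 6 libraries, WT replicate 3 held 42 of 51 reads of Tyr and 149 of 168 of Tyrp1, while of Gpnmb it held 738 of 2187.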
